A study of Mus musculus with 6 samples.

Results

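Illumina bead arrays of mouse synovial tissue in collagen-induced arthritis held 98 probes, for 97 genes, whose signal was highest at week 9 after immunization. They were chosen from the authors' processed log2 values over the 23978 probes with a gene symbol, which stand for 16593 genes. A probe qualified when both week 9 arrays lay above all 4 arrays of week 6 and week 15, which 3283 probes did (13.7% of those with a symbol). The qualifying probes were ranked by peak height, the mean at week 9 minus the larger of the means at week 6 and week 15. The top 100 were taken, and Cox10 (height 0.48) and Psmb2 (height 0.44) were dropped because their symbols begin like those of respiratory chain and proteasome subunit genes. The last members inside were Ipo4 and Ncbp3 at 0.404 and Csnk1g2 at 0.403, and the first probes outside were those of Adgre5 at 0.403 and of Acot8 and Alg12 at 0.402. The cut thus lies on a continuous slope of heights. Since the week 9 values chose the members, their height over week 6 and week 15 is given as a description and carries no test.

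The mice of all groups were DBA/1 males, a strain that develops arthritis readily in this model. At 6 to 8 weeks of age they had received type II collagen from cattle, emulsified in complete Freund's adjuvant, and they were boosted in a footpad 2 weeks later. The series names week 6 as induction of arthritis, week 9 as its peak and week 15 as resolution, with 2 arrays each and 6 in all. RNA came from pooled tissue around the ankle joints without skin, the boosted hind foot being left out, and no unimmunized mice were analysed here. It is not stated if the arrays of a week come from different tissue pools, and a p-value here therefore reflects array-to-array spread that could be purely technical.

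Detection above background on at least 2 arrays was met by 13 of 14 B and plasma cell markers and by 14 of 18 T and NK cell markers. Of the fibroblast and synovial lining markers 9 of 12 met it, with the lining gene Clic5 detected on no array, as did 3 of 10 cartilage markers. The second week 15 array was the dimmest, with a median intensity of 99.07, against up to 129.5 on the brightest. Skeletal muscle markers summed to 8311 on the first week 15 array and to between 811 and 1198 on the other arrays (linear scale after background correction). Whether that muscle signal has a part in any result below was not tested. In bulk tissue, fewer cells of a type and less RNA per cell cannot be told apart.

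The genes of these probes are not those of a single pathway. Grouped by hand after they were known, the largest set is of proteins that act on chromatin and transcription (19 probes), such as enzymes that write or erase histone marks and the cofactors they sit with. Proteins of membrane traffic, which move cargo between endoplasmic reticulum, Golgi and endosomes in coated vesicles, make up 15 probes. Another 5 belong to the nucleolus, where ribosomes are assembled, and 9 to the processing of RNA and to translation. The rest serve the cytoskeleton and cell polarity (8 probes of 7 genes), signalling (10), metabolism (10), or functions specific to immune cells (7), and 15 were left unassigned. Of the 97 genes, 96 are annotated as protein coding and 1, Gm10052, as a transcribed pseudogene.

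**Figure D1:**
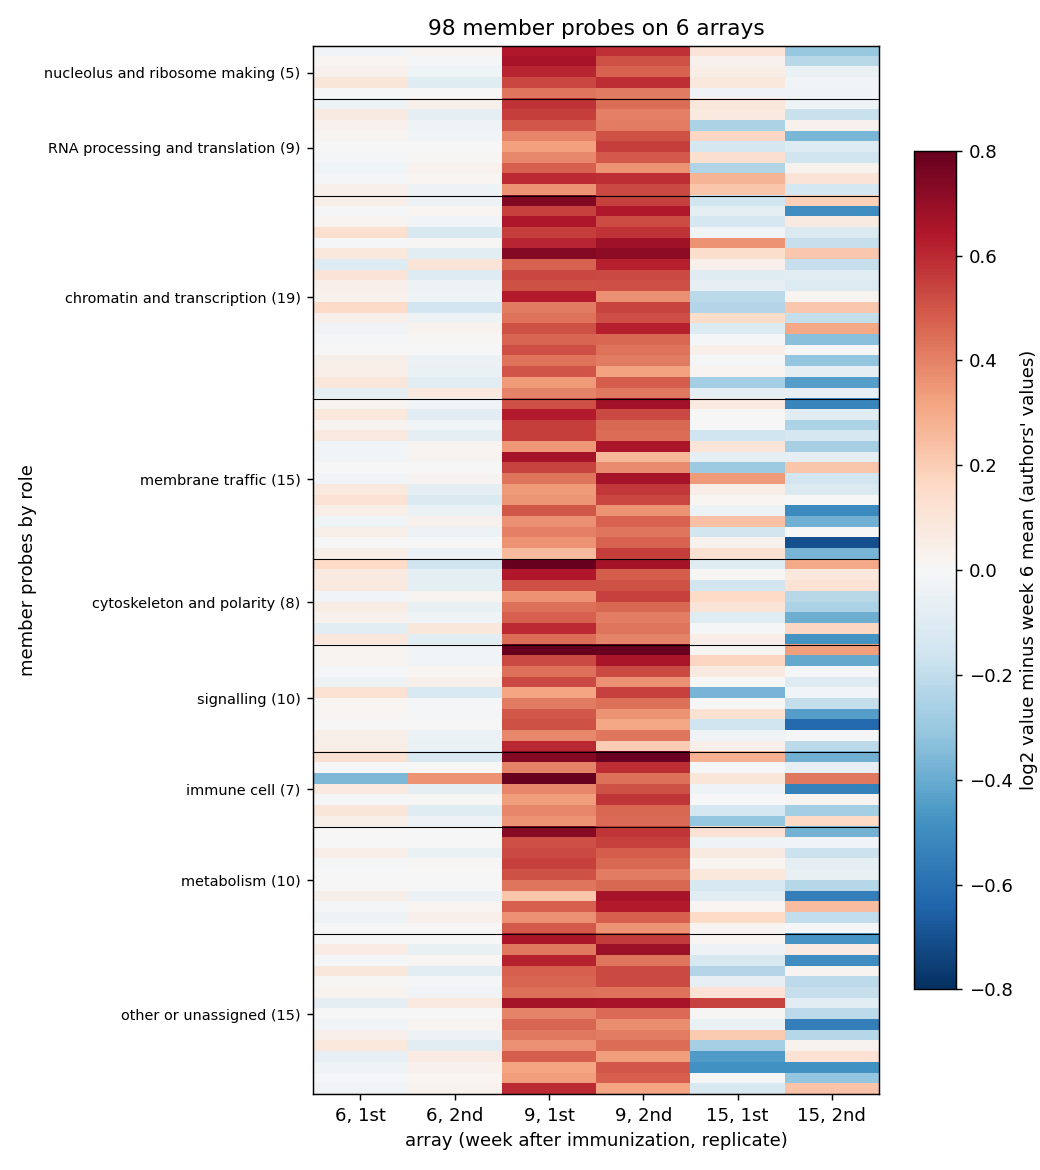
Each row is a member probe, ordered by role and then by peak height, and each column an array; colour gives the log2 value minus that probe's week 6 mean, in the authors' values. Both week 9 columns are red in all roles by choice of the members, while the second week 15 column is mostly blue, with 63 of 98 probes below both week 6 arrays.

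Peak heights were small. They ran from 0.403 to 0.762 on the log2 scale with a median of 0.452, which is 1.32-fold to 1.70-fold with a median of 1.37-fold, and 32 of the 98 reached 0.5. Over all 3283 qualifying probes the median height was 0.146. For comparison, the 100 largest dips at week 9, where both week 9 arrays lay below the other 4, had heights from 0.58 to 1.18, and 11.0% of probes with a symbol showed a dip of any size. The height was larger than the gap between the week 9 arrays for 97 members, the exception being Oas1g. The choice by height and by both week 9 arrays favours that count, so it is a description only. The typical member had bright signal. Its mean stood at a median percentile of 80.4 among the 13747 probes tested, from 34.8 for the Actb probe to 96.7 for Fbl, and all but the Actb probe were detected above background on all 6 arrays. After background correction 90 members had a larger height, the dim Actb probe 1.13 against 0.44. The rule on those values named 99 probes, of which 21 were members. The part of the scale used for the choice in this brightness was not tested.

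**Figure D2:**
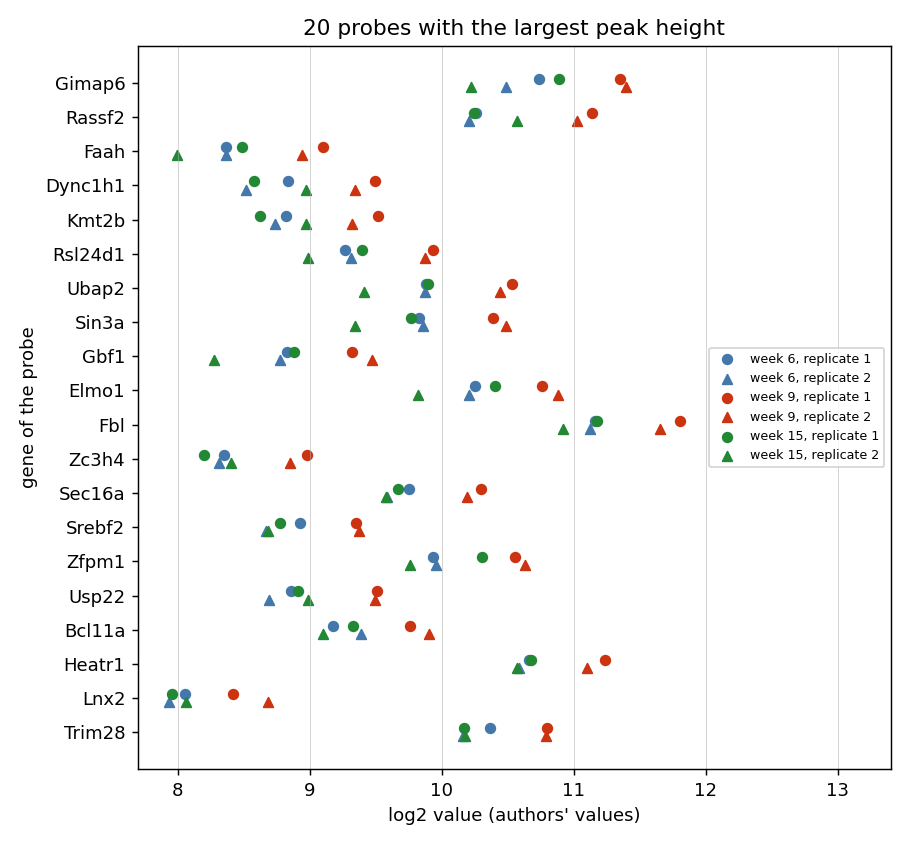
The log2 values of the 20 probes with the largest peak height are plotted by gene, with circles for the first and triangles for the second array of each week. Red week 9 points stand to the right of all others in each row, and the week 15 points (green) lie on both sides of the week 6 points (blue).

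Among proteins of the nucleolus, Rsl24d1, Fbl, Heatr1, Ubtf and Nsun5 had week 9 peaks, with a median height of 0.542. Fbl, or fibrillarin, the enzyme that methylates ribosomal RNA, had log2 values of 11.16 and 11.13 at week 6, 11.80 and 11.65 at week 9, and 11.18 and 10.92 at week 15. Heatr1, which is needed for transcription and processing of that RNA, had 10.66 and 10.59, then 11.23 and 11.10, then 10.68 and 10.57. Rsl24d1, a factor in the making of the large ribosomal subunit, had 9.27 and 9.31, then 9.93 and 9.87, then 9.39 and 8.99. In each of these member probes the week 15 values lay on both sides of those of week 6, and week 9 stood clear of all of them. A further Rsl24d1 probe, detected on all 6 arrays, had no week 9 peak: its values were 8.93 and 9.05, then 8.95 and 9.00, then 9.56 and 9.47, highest at week 15. The values of Ubtf, a transcription factor of RNA polymerase I, were 9.34 and 9.14, then 9.78 and 9.83, then 9.33 and 9.22. Nsun5, a methyltransferase of ribosomal RNA, was the tightest of the 5, at 7.57 on both week 6 arrays, 8.00 and 7.99 at week 9 and 7.54 on both week 15 arrays. Other tested Nsun5 probes had heights from -0.12 to 0.28. Proteins of the finished ribosome were not among the members: of 57 tested genes for cytosolic ribosomal proteins, 8 had both week 9 arrays above the other 4 and 12 below, on the brightest probe of each gene. Over all genes taken this way, 20.4% lay above and 12.5% below.

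The 9 probes for RNA processing and translation had heights from 0.404 to 0.483. Ptbp1, a repressor of splicing, had log2 values of 10.71 and 10.79 at week 6, 11.33 and 11.20 at week 9, and 10.84 and 10.72 at week 15. A dimmer Ptbp1 probe, detected on all 6 arrays, had a height of -0.32. Srrm2, a scaffold of nuclear speckles and of the spliceosome, had 9.16 and 9.01, then 9.64 and 9.48, then 9.16 and 8.91. Other tested Srrm2 probes had heights of -0.31, -0.27 and -0.08. Eif2b5, a subunit of the exchange factor that recharges eIF2 with GTP, had 8.37 on both week 6 arrays, then 8.70 and 8.92, then 8.23 and 8.27. Week 15 values of Ptbp1 and Srrm2 lay around those of week 6, both of Eif2b5 lay below them, and none overlapped with week 9. The others were Skiv2l, a helicase that feeds RNA to the exosome, Ints3 of the Integrator complex, the pseudouridine synthase Pus1, the helicase Ddx24, the splicing factor Sart1 and the cap-binding protein Ncbp3. Among 47 tested genes for spliceosome, Sm and Lsm proteins, 10 lay above (21.3%) and 9 below, and among 38 for translation initiation factors 6 (15.8%) and 8. Over all genes on the brightest probe, 20.4% lay above and 12.5% below.

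The chromatin and transcription probes had a median height of 0.50. Kmt2b, a methyltransferase of histone H3 lysine 4, had log2 values of 8.82 and 8.73 at week 6, 9.52 and 9.32 at week 9, and 8.62 and 8.97 at week 15. Sin3a, the scaffold of a histone deacetylase corepressor, had 9.83 and 9.86, then 10.39 and 10.48, then 9.77 and 9.35. For Trim28, the corepressor recruited by KRAB zinc finger proteins, the values were 10.36 and 10.16, then 10.80 and 10.79, then 10.17 and 10.18. Both week 15 arrays of Sin3a lay below both of week 6, while those of Kmt2b fell on either side of them. Other erasers and readers of marks were the deacetylase Hdac5 (height 0.51), the demethylase Phf2 (0.50), Usp22, the deubiquitinase of the SAGA complex (0.55), and Bcor of a Polycomb complex (0.48). Among factors that bind DNA, Srebf2, which switches on genes of cholesterol synthesis, had 8.93 and 8.67, then 9.35 and 9.38, then 8.78 and 8.68. Bcl11a, a factor needed for B cell development, had 9.18 and 9.39, then 9.76 and 9.90, then 9.32 and 9.10. Rfx1 and Rxrb, a partner of many nuclear receptors, had heights of 0.46 and 0.42, and the nuclear receptor coactivators Ncoa6 and Ncoa1 of 0.47 and 0.415. The remaining probes were for Zc3h4, Zfpm1, which is a cofactor of GATA factors, Banf1, Nfrkb, Sertad3 and Paf1, with heights from 0.41 to 0.59. Of 45 tested genes for RNA polymerase and Mediator subunits none was a member, and 14 lay above (31.1%) and 4 below. Of 46 for homeobox, Fox and Sox factors 6 lay above (13.0%) and 5 below. Over all genes on the brightest probe, 20.4% lay above and 12.5% below.

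Membrane traffic probes had a median height of 0.455. Gbf1, an activator of the Arf GTPases at the Golgi, had log2 values of 8.83 and 8.78 at week 6, 9.32 and 9.47 at week 9, and 8.88 and 8.28 at week 15. Sec16a, which organizes the exit sites of the endoplasmic reticulum, had 9.75 and 9.59, then 10.30 and 10.19, then 9.67 and 9.57. Sec24c, the cargo-binding subunit of the COPII coat that forms at those sites, had 9.83 and 9.67, then 10.31 and 10.20, then 9.59 and 9.62. Week 15 values of Sec16a overlapped with those of week 6, both of Sec24c lay below them, and those of Gbf1 lay far apart, on either side of week 6. On the Golgi and endosome side, the clathrin adaptor subunit Ap1m1 had a height of 0.42, the tethering subunit Cog8 of 0.42, the SNARE protein Vamp3 of 0.50, and Tgfbrap1, a subunit of an endosomal tether, also of 0.50. Another Vamp3 probe, detected on all 6 arrays, had a height of -0.08. Arfgap2, Psd4, Pacs1, Dennd5a, Snx15, Rabep2, Gpr107 and Nsg2 complete the group, from 0.405 to 0.466. In a wider list of 156 tested genes for Rab, Arf, Vps, exocyst, coat, sorting nexin and adaptor proteins, 42 lay above (26.9%) and 22 below, with a median height of 0.003, where tested probes with a symbol had a median of -0.037. Over all genes on the brightest probe, 20.4% lay above and 12.5% below.

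The 7 immune cell probes were for genes of lymphocytes, antigen-presenting cells and the interferon response. Gimap6, a GTPase of lymphocytes, ranked first, with log2 values of 10.73 and 10.49 at week 6, 11.35 and 11.40 at week 9, and 10.89 and 10.22 at week 15. Its mean was 11.37 ± 0.04 at week 9 against 10.61 ± 0.17 at week 6 and 10.56 ± 0.47 at week 15 (SD, n = 2). H2-Eb1, a chain of MHC class II, had 9.85 and 9.84, then 10.24 and 10.44, then 9.82 and 9.78, and Ciita, the activator of the class II genes, had 11.02 and 10.93, then 11.33 and 11.42, then 10.66 and 11.13. Plcg2, a phospholipase used by the B cell receptor, had 10.34 and 10.15, then 10.64 and 10.71, then 10.11 and 9.97. Hcls1, a cortactin relative of blood cells, and Ly6d, a surface protein of early B cells, had heights of 0.44 and 0.45. Beside these, the 18 T and NK cell markers on the array summed to a linear signal of 29800 and 30919 at week 6, 39767 and 33064 at week 9, and 35937 and 32392 at week 15. Of the 14 tested, 5 lay above the other 4 arrays at week 9 and 1 below, and Cd8a, Gzma and Gzmb were detected on no array. Over all genes on the brightest probe, 20.4% lay above and 12.5% below, which is the share to set beside these and the following counts. The sum over 14 B and plasma cell markers ran from 43663 to 45479 at week 6, from 40349 to 45892 at week 9 and from 36113 to 44530 at week 15, with 1 of 13 above, 2 below and Prdm1 detected nowhere. The dendritic cell list, which holds Ciita and class II genes, summed to 70635 to 74722, then 77334 to 78706, then 67831 to 74981, with 2 of 9 above, 1 below, and Clec9a and Flt3 detected on no array. Ciita is a member, so its place among those above is fixed by the choice, and its signal is part of the sum. Macrophage markers summed to 30331 to 31306 at week 6 and to between 19435 and 22465 at week 9 and week 15, with 0 of 10 above, 2 below, and Cd163 and Vsig4 detected nowhere. Several lists of other cells had lower sums at week 9 than at week 6. Fibroblast and lining markers summed to 15720 and 12570 at week 6, 10985 and 9773 at week 9, and 10624 and 10761 at week 15, and endothelial markers to 4520 and 2641, then 1831 and 1993, then 2261 and 2000. Smooth muscle and pericyte markers summed to 2508 and 1757, then 1216 and 1305, then 1815 and 917, and adipocyte markers, of which Fabp4, Plin1 and Retn were detected on no array, to 923 and 1098, then 350 and 360, then 493 and 350. Erythroid markers summed to 14715 and 16921, then 6700 and 8353, then 16559 and 8403, and neutrophil markers to 10568 and 6960, then 6439 and 5989, then 5085 and 4814. Of the tested markers lying above the other 4 arrays at week 9, neutrophils had 2 of 12 and endothelium 1 of 10, and the fibroblast, smooth muscle, adipocyte and erythroid lists 0. The part of these cell types in the peak was not tested.

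Oas1g, an oligoadenylate synthetase induced by interferon, was the least even member. It had log2 values of 7.15 and 7.87 at week 6, 8.56 and 7.95 at week 9, and 7.60 and 7.93 at week 15. The lower week 9 array stood 0.016 above the higher week 15 array, while the other week 9 array stood far above both. Another Oas1g probe, detected on all 6 arrays, had 6.89 and 7.56, then 8.00 and 7.55, then 7.33 and 7.77. Its second week 9 array lay below the second week 15 array, so it did not qualify. In a list of 58 tested interferon and Toll pathway genes, which does not hold Oas1g, 10 lay above (17.2%) and 4 below. Classical mediators of joint inflammation were not members. Of 35 tested chemokine and receptor genes 1 lay above (2.86%) and 6 below. Of 42 interleukin and receptor genes 4 lay above (9.52%) and 8 below, and of 19 immediate early genes 1 (5.26%) and 1. Over all genes on the brightest probe, 20.4% lay above and 12.5% below.

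In metabolism, Faah, which breaks down the lipid messenger anandamide, had log2 values of 8.37 on both week 6 arrays, 9.10 and 8.94 at week 9, and 8.49 and 7.99 at week 15. A brighter Faah probe, detected on all 6 arrays, had 9.89 and 10.00, then 10.56 and 10.04, then 10.12 and 10.08. Its second week 9 array lay below both week 15 arrays, so it did not qualify. Ung, which cuts uracil out of DNA, had 8.49 and 8.50, then 9.01 and 9.04, then 8.46 and 8.47, with close values within each week. Another tested Ung probe had a height of -0.04. Dad1, a subunit of the oligosaccharyl transferase that glycosylates proteins, had a height of 0.44 and Alg9, a mannosyltransferase of the same pathway, also of 0.44. The other enzymes and carriers were Gart of purine synthesis, Pgls of the pentose phosphate pathway, the mitochondrial kinase Dguok, the biotin ligase Hlcs, Adck1 and the carrier Slc25a45, from 0.41 to 0.51. Among signalling probes, Rassf2, a Ras-binding protein, had 10.26 and 10.21, then 11.14 and 11.03, then 10.25 and 10.57. Its week 9 mean was 0.67 above that of week 15 and 0.85 above that of week 6. A dimmer Rassf2 probe, detected on 4 of 6 arrays, had a height of -0.21. Ptpn11, the phosphatase SHP2, Sipa1 and Sipa1l1, which act on Rap GTPases, Wdr24 of the nutrient-sensing GATOR2 complex, and Arhgap9 had heights from 0.41 to 0.46, as did Fgf22 and Ppme1. Of the other tested Ptpn11 probes, the brighter had a height of -0.29 and the dimmer of 0.24.

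Cytoskeleton and polarity probes included Dync1h1, the motor subunit of cytoplasmic dynein, with log2 values of 8.84 and 8.52 at week 6, 9.50 and 9.34 at week 9, and 8.58 and 8.98 at week 15. Llgl1 and Llgl2, paralogs that set apical-basal polarity, had heights of 0.45 each, and Patj, a scaffold of the same system, of 0.52. Other tested Patj probes had heights of -0.01 and -0.02. Plec, a linker of cytoskeletal filaments, was the single gene with more than 1 member probe. Its brighter probe had 10.29 and 10.11, then 10.65 and 10.60, then 10.25 and 9.72, and its dimmer probe 7.35 and 7.53, then 8.04 and 7.87, then 7.43 and 7.61. Both were highest at week 9 and they parted at week 15, where the second array was the lowest of the 6 on the brighter probe but not on the dimmer. Sptbn1, a spectrin, had a height of 0.51. Another Sptbn1 probe, detected on all 6 arrays, had 8.57 and 8.23, then 8.17 and 7.81, then 8.10 and 8.41, a height of -0.40. The remaining tested probe, detected on 2 arrays, had a height of -0.04.

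Among the 15 unassigned probes, Ubap2, a ubiquitin-associated protein, had the widest clearance of all members. Its log2 values were 9.88 on both week 6 arrays, 10.53 and 10.44 at week 9, and 9.90 and 9.41 at week 15, so that 0.544 separated the lower week 9 array from the highest other. Lnx2, a ubiquitin ligase of the Notch antagonist Numb, had 8.06 and 7.94, then 8.42 and 8.68, then 7.96 and 8.06. Emp3 had a height of 0.52, and Tmem131 and the myosin chaperone Unc45a of 0.50 each. The others, Ccdc92, Gm10052, the Hsp40 protein Dnajc7, the potassium channel subunit Kcnab2, Dcakd, Tmem131l, Fam168b, Sbk1, the nuclear envelope protein Nrm and the nuclear import receptor Ipo4, lay between 0.404 and 0.44. Gm10052 had a first week 15 array close to week 9, at 10.10 against 10.22 on both week 9 arrays.

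A gene's other probes did not always follow the member probe. Of the 97 genes, 40 had 104 other probes, of which 71 probes of 37 genes passed the detection filter. Both week 9 arrays lay above the other 4 for 21 of these (29.6%) and below them for 18 (25.4%). Among all tested probes of genes with several, 18.8% lay above and 17.3% below. Over 808 other genes that had a qualifying probe, the remaining probes lay above in 21.1% and below in 12.9%. Elmo1 supplied 10 of the 18 opposite probes and Actb 3, and the other 5 were for Ddx24, Ptbp1, Ptpn11, Rassf2 and Srrm2. Without Elmo1, 21 of 59 lay above (35.6%) and 8 below (13.6%). The arrays are the same for all probes of a gene, so these are repeated readings of the same RNA and not new samples. The largest heights among them were those of Ncoa6 (0.36), Ddx24 (0.35), Ly6d (0.34), Hdac5 (0.34), Actb (0.33) and Banf1 (0.31). All lie under the threshold of the choice, since a probe above it would be a member.

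**Figure D3:**
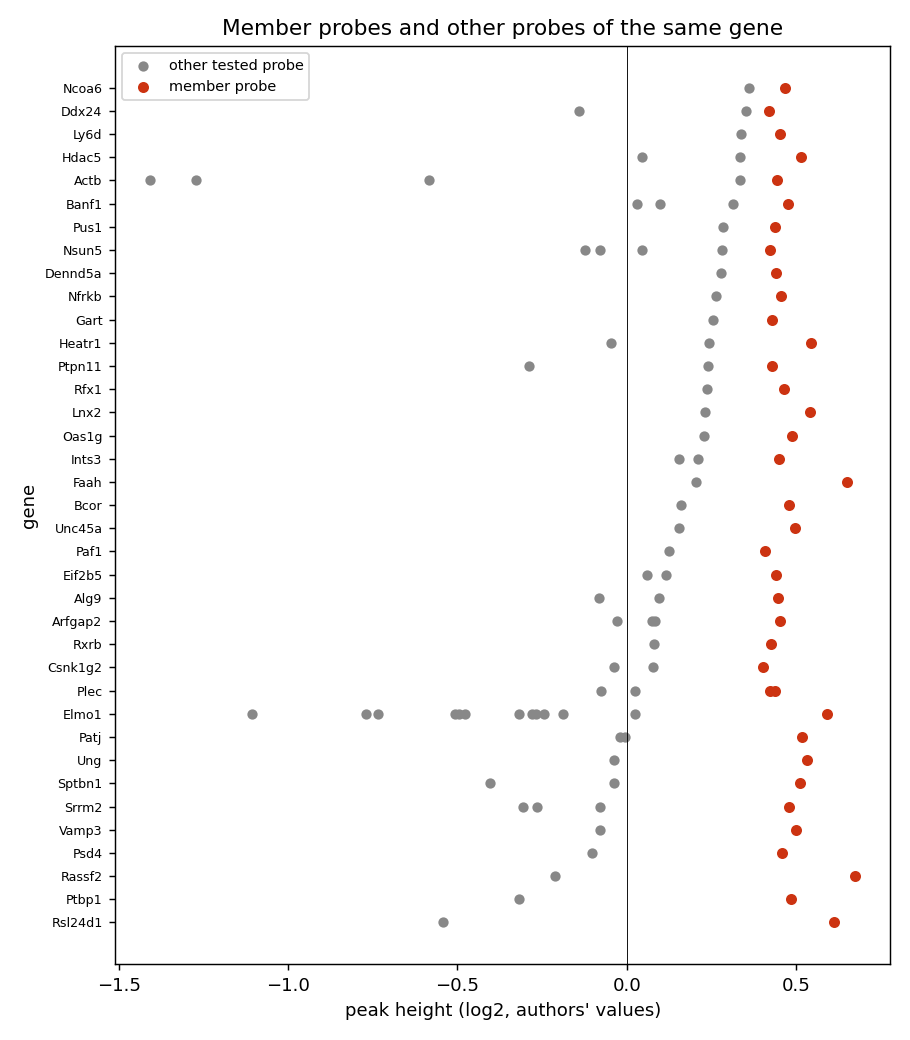
For the 37 genes with another tested probe, the peak height of the member probe (red) and of each other probe (grey) is plotted in log2 units. Grey points run from -1.41 to 0.36, with 35 of 71 above 0, and those farthest to the left belong to Actb and Elmo1.

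Elmo1, which works with Dock proteins to activate Rac in cell migration and in the engulfment of dying cells, showed opposite patterns on its probes. The member probe had log2 values of 10.25 and 10.21 at week 6, 10.76 and 10.88 at week 9, and 10.40 and 9.82 at week 15. Another probe had 8.23 and 8.25, then 7.38 and 7.19, then 8.26 and 8.52, which is the deepest dip among the probes of the gene. On the member probe the second week 15 array was the lowest of the 6, and on the other it was the highest. The probe annotation assigns the member to a different RefSeq transcript from that of the opposite probes. The member's transcript has 1 further tested probe, which was detected on 2 of 6 arrays and had a height of 0.02, and the other transcript has 11 tested probes, of which 10 lay below and 0 above. RefSeq places 2 starts for Elmo1 on chromosome 13, 382.5 kb apart, and the promoter table does not say which transcript begins where. The peak on the member's transcript thus rests on a single probe. The 100 bases before each start are shown because the member and the opposite probes are assigned to different transcripts. They are on the plus strand of GRCm38.p6, 5′ to 3′, with capitals at a match to any of the 9 motifs listed below.
Elmo1, chr13:20090407-20090506: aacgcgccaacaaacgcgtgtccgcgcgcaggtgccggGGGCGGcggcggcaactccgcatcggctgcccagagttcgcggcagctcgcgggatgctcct
Elmo1, chr13:20472890-20472989: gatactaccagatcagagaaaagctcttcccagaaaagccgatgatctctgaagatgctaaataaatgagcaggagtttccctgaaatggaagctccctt
The first start lies in a CpG-rich window, with 60.0% G or C and 21 CG pairs in 300 bases, and holds a GC box. The second has 46.0% G or C and 6 CG pairs, and none of the 9 motifs occurs in the bases shown.

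Actb, the gene for beta-actin, is a common reference for loading, and its member probe was dim. It had log2 values of 7.06 and 6.99 at week 6, 7.50 and 7.43 at week 9, and 6.92 and 6.63 at week 15, and was detected on 5 of 6 arrays. Another dim probe gave 6.92 and 6.98, then 7.25 and 7.31, then 6.79 and 6.72. The 3 bright probes went the other way at week 9. The brightest had 14.70 and 14.80, then 14.14 and 14.19, then 14.59 on both week 15 arrays. The next had 13.20 and 13.23, then 11.97 and 12.09, then 13.28 and 13.33, and the third 11.16 and 11.42, then 9.89 and 9.88, then 10.78 and 10.64. Probes assigned to Actb thus had opposite readings at week 9, the dim ones higher and the bright ones lower.

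**Figure D4:**
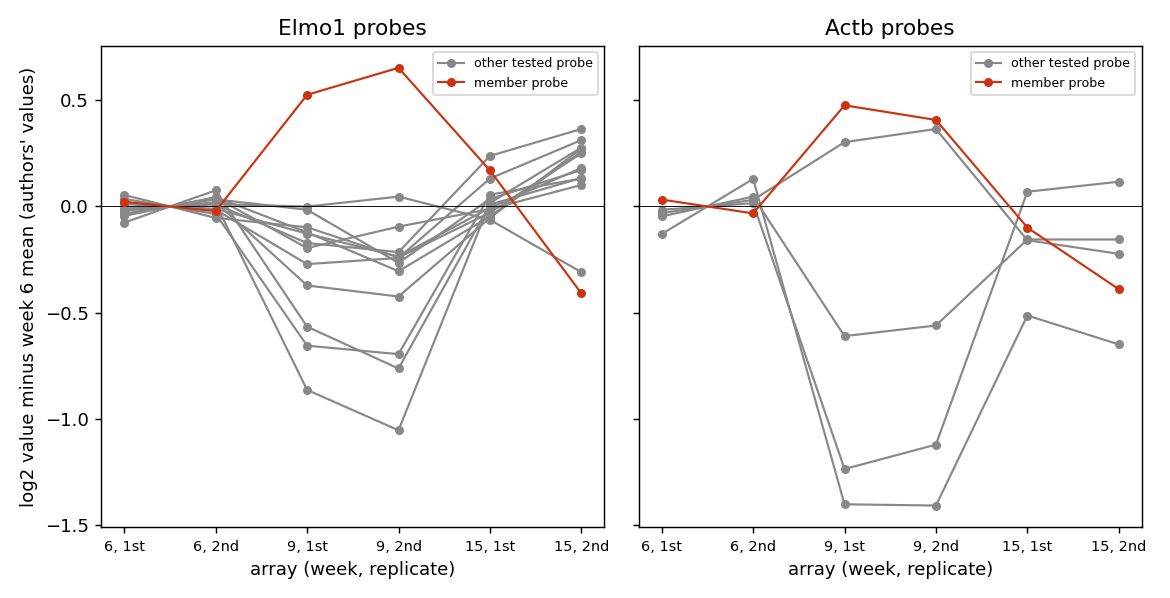
Log2 values minus the week 6 mean of the same probe are drawn across the 6 arrays, with the member probe in red and other tested probes of Elmo1 (left) and Actb (right) in grey. Member probes stand above 0 at week 9, while 10 of 12 other Elmo1 probes and 3 of 4 other Actb probes lie below all their other arrays there.

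The sign of the difference between week 15 and week 6 was not used in the choice, although the choice held down the larger of both means, so the sizes are not independent of it. The comparison asks how signal at resolution stood against that at induction. In the limma fit over all 13747 probes tested, 0 of the 98 members passed an adjusted p of 0.05, against 5 of all probes (0.0364%) as higher and 0 as lower at week 15. At an unadjusted p under 0.05, 0 members were higher and 3 lower, against 6.49% and 7.43% of all probes. The log2 differences, week 15 minus week 6 on background-corrected values, ran from -0.90 to 0.56 with a median of -0.08, and had a median standard error of 0.19. Their adjusted p ran from 0.258 to 0.996. The differences were negative for 74 of 98 members, against 50.4% of tested probes with a symbol, a count that is not independent of the choice. A p that misses the threshold does not show that week 15 equalled week 6. The lowest p were those of Sertad3, a transcriptional coregulator, at -0.65 ± 0.20 (SE, limma adjusted p = 0.258), Sbk1, a kinase, at -0.52 ± 0.17 (SE, adjusted p = 0.265) and the Actb probe at -0.90 ± 0.34 (SE, adjusted p = 0.315). The Actb probe was above background on 1 of 2 week 15 arrays, and its difference was -0.24 on the authors' values, -0.34 with no background correction and -0.34 without the second week 15 array. That of Sertad3 was -0.36 on the authors' values. Sbk1 had log2 values of 10.31 and 10.38 at week 6 and 9.86 on both week 15 arrays, which do not overlap.

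The gap between the week 15 arrays had a median of 0.266 (log2) over the members and of 0.146 over tested probes with a symbol, against 0.071 and 0.082 at week 6. Among the 4 arrays of week 6 and week 15, the second week 15 array was the lowest for 57 of 98 members, against 36.3% of tested probes with a symbol. The first week 15 array was the lowest for 22 (20.9%), the first week 6 array for 8 (23.4%) and the second for 11 (19.4%). The second week 15 array lay below both week 6 arrays for 63, against 42.2%. The choice asks for low values outside week 9, so these counts are not independent of it. The first week 15 array lay below both week 6 arrays for 34 and above both for 36. Both counts, and the counts of negative differences with an array left out, have no share over all probes beside them. They are therefore not read as a trait of the members. Without the second week 15 array, 48 of 98 members had a negative difference and the median was 0.00; without the first, 74 were negative, the median was -0.16, and 0 members passed as higher and 2 as lower, Cog8 (-0.83, limma adjusted p = 0.045) and the Actb probe. Under that setting 2.99% of all probes tested passed as higher and 4.26% as lower, so the members' share was below that of all probes. The lone week 15 array is there assumed to vary like the arrays of the other groups, and no size is given for Actb because its probe was not above background on that array. Cog8 had 9.37 on the first and 8.64 on the second week 15 array, against 9.34 on both week 6 arrays. The second array was also the dimmest before scaling, and the part of that in these values was not tested.

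**Figure D5:**
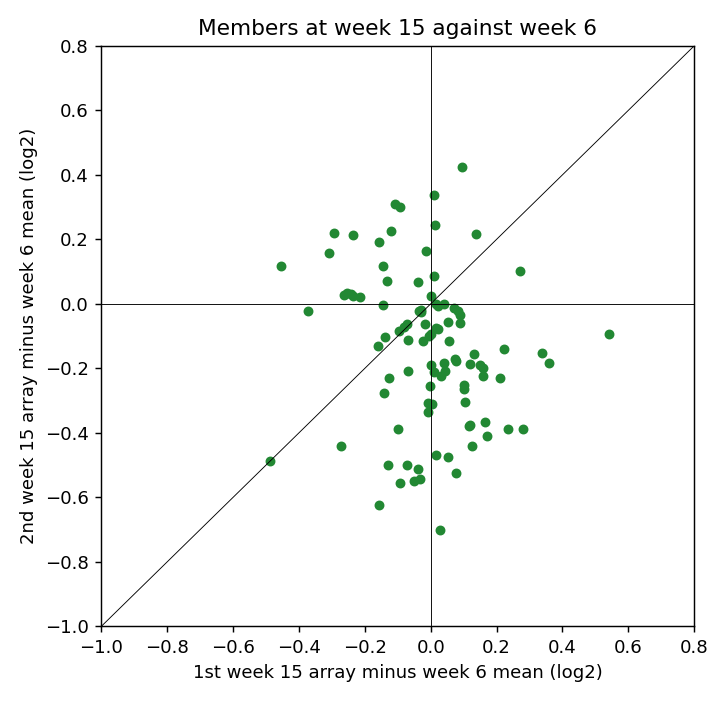
Each point is a member, with the first week 15 array (x axis) and the second (y axis) given as log2 value minus the week 6 mean, and the diagonal marks equal values. Most points lie below the diagonal and below 0 on the y axis: the second array was lower than the first for 64 of 98 members, against 50.8% of tested probes with a symbol.

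Promoter sequence did not set these genes far apart from others with signal on the arrays. A RefSeq window of 300 bases (250 before and 50 after the start, GRCm38.p6) was found for 79 of the 97 genes. The median G or C content was 60.7%, against 60.0% for 7700 genes with a tested probe and 52.8% for all 27025 genes with a window. CpG observed over expected, a measure of CpG islands, was above 0.6 in 75.9% of member genes, 67.2% of tested genes and 35.5% of all. Motifs were searched on both strands and counted once per gene. The GC box, GGGCGG, occurred in 70.9% of member genes, 66.0% of tested genes and 38.2% of all. The ETS site, CCGGAAG, occurred in 21.5%, 19.5% and 9.93%, and the CCAAT box, CCAAT, in 49.4%, 43.7% and 41.1%. The YY1 core, AAGATGG, was in 12.7%, 8.64% and 7.28%, and the NRF1 core, GCGCATG, in 10.1%, 7.71% and 4.41%. The TATA box, TATAAA, occurred in 8.86%, 9.79% and 15.7%, the AP-1 site, TGANTCA, in 5.06%, 6.75% and 8.97%, the CRE core, TGACGTC, in 7.59%, 5.83% and 3.60%, and the E-box, CACGTG, in 12.7%, 11.5% and 8.09%. None of these motifs contains another, and a match is a string of letters, not a shown binding site. Shares in member genes thus lay nearer to those of tested genes than to those of all genes.

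The ETS site is printed, as an example of a motif in its place, for the members of largest height that have it in the 100 bases before a start. All are on the plus strand of GRCm38.p6, 5′ to 3′, with the site in capitals, read as CCGGAAG or its reverse complement CTTCCGG.
Rsl24d1, chr9:73113369-73113468: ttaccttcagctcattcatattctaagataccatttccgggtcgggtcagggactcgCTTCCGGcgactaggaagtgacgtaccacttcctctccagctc
Heatr1, chr13:12395275-12395374: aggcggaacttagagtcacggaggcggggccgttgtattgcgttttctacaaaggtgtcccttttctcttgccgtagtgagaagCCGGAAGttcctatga
Sec24c, chr14:20674221-20674320: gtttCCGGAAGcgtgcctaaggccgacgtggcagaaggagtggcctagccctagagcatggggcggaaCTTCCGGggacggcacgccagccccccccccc
In Sec24c the site occurs on each strand, and in Rsl24d1 and Heatr1 on 1 strand each.

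The member genes were spread over chromosome X and all autosomes but 18, which holds only 2.15% of genes with a tested probe. Chromosome 7 held 12 (12.4%, against 8.00% of genes with a tested probe) and chromosome 11 held 11 (11.3%, against 8.75%). The span of the member genes in the genome had a median of 28.2 kb, against 20.9 kb for tested genes, from 1.43 kb to 517.8 kb.

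Which probes the rule names depended on the processing. With background correction by the normal-exponential model and quantile scaling of the signal table, all 98 members had both week 9 arrays above the other 4, where 19.2% of tested probes with a symbol did; the choice of members largely fixes that count. Their heights then ran from 0.39 to 1.13 with a median of 0.56. The rule applied to those values named 99 probes, and 21 of them were members, which is 21.2% of that list and 21.4% of the members. On log2 intensities with quantile scaling and no background correction it shared 72 of 99. Without the second week 9 array it shared 52 of the 100 probes it named, and without the second week 15 array 65 of 100.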

How the data were processed

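Members, roles and gene lists were chosen with earlier results of these data known. The deposited signal table gives linear intensity for each probe on each array and has no detection p-value column, per the file headers. The authors' processed values are log2 values with medians of 6.732 to 6.734, and the distributions of the arrays nearly coincide. Sources used here name no scaling step for either table. Each of their columns correlated with the log2 intensity of its own array at 0.9958 or more, and with others at 0.9922 at most. The signal table has 2 further sample columns that match no sample here and were not used. Its 1124 rows without a probe ID were taken as controls; 17 whose signal exceeded the control median by more than 5 scaled MADs on some array were dropped, and 1107 gave the background. Probes were tested if the detection p (share of background rows at or above it) was under 0.05 on at least 2 arrays. Intensities of 25697 probes were corrected by the normal-exponential model with an offset of 16, log2-transformed and then quantile-normalized together with the 1107 background rows. Tested probes were fitted with limma 3.58.1 in R 4.3.3, with group means over all 6 arrays and 3 residual and 4.36 prior degrees of freedom. The p-values were two-sided, with Benjamini-Hochberg adjustment over all 13747 probes tested. The fit was also run on simulated data with a single spread for all probes and with changes larger than those of any member. That run does not bear on changes as small as theirs. Detection ran from 48.1% to 51.1% of probes per array, and the number of arrays limits the precision. Probe names come from GEO's platform annotation, and sequences from RefSeq (GRCm38.p6). Genes were named by a rule: the largest heights, the members beside the threshold, members in a list, members with other probes and the extremes of signal; further members are named with their group.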

Additional observations from a re-analysis of the deposited data

How the results depend on the processing

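No member passed between week 15 and week 6 under any of 9 other processings or fits, where the lowest adjusted p of a member ran from 0.13 to 0.439, and over single arrays left out 0 to 2 passed. The number of probes passing was 5 and moved more: 30 with no background correction, 49 with a normal-exponential offset of 50, 11 with 75th percentile scaling, 16 with the authors' processed values, 8 when only probes detected on all 6 arrays were tested (fewer probes), and 3 to 997 over single arrays left out, the 997 without the first week 15 array; the cause was not tested. With the replicate number as a block 4 passed and 0 members. The numbers were not taken as pairs in the main fit. Deviations of same-numbered arrays correlated across probes at -0.039, 0.152 and -0.078, which cannot exclude that such arrays share a pool or a batch. The median peak height was 0.561 and 0.501 on the other scalings and 0.434 to 0.478 over single arrays left out. The rule named 21 members again on background-corrected values and 52 to 81 over single arrays left out, and all 98 kept both week 9 arrays on top on the other scalings, which the choice of members largely fixes.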
